A study of Mus musculus with 21 samples.

Results

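The genes examined here encode the enzymes and channels that carry a signal from a membrane receptor through phospholipase C to protein kinase C and to the calcium store of the neuron. They were chosen by name as Prkca, Prkcb and Prkce (protein kinase C alpha, beta and epsilon), Plcb1 (phospholipase C beta 1), Itpr1 (the type 1 inositol trisphosphate receptor), Ryr2 (the type 2 ryanodine receptor) and Itpka (inositol trisphosphate 3-kinase A). All 7 were found among the 5544 genes of the deposited table. Cortical RNA was sequenced from 10 sham and 11 HF-HI mice, 1 library per mouse, 24 h after the final impact. HF-HI (high-frequency head impact) is a closed-head model in which anesthetized mice received repeated impacts on successive days, and sham mice were anesthetized with isoflurane and not struck. Every mouse was labelled as a male C57BL/6 of 12 weeks (the study's methods name the substrain C57Bl/6J), with no transgene or drug named in its label, so the groups differed in the impacts alone as far as the labels go.

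Receptors coupled to the G protein Gq, among them group I metabotropic glutamate receptors and muscarinic M1 receptors, activate phospholipase C beta at cortical synapses. The enzyme splits a membrane phosphoinositide into diacylglycerol, which activates the conventional protein kinases C together with calcium and isoforms such as epsilon without it, and inositol trisphosphate, which opens the type 1 receptor on the endoplasmic reticulum. Ryanodine receptors of the same membrane open on calcium itself, and inositol trisphosphate 3-kinase A ends the signal by phosphorylating inositol trisphosphate, besides bundling actin in dendritic spines.

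Values are variance-stabilized and lie on a log2 scale, where differences are close to log2 ratios of counts for genes as abundant as these. The table holds 1 value per gene, so isoforms of one gene, such as the beta I and beta II forms of Prkcb, cannot be told apart. Of the 7 genes, 6 are long and spanned from 338 kb (Itpr1) to 689 kb (Plcb1) of the genome, where the median gene of the table spanned 39.1 kb. Itpka was the exception with 8.93 kb and 1 annotated transcript, and it was also the richest in GC, with 61.1% over its exons against 42.9% to 49.8% for the other 6 and a table median of 47.6%. Every GENCODE position is on GRCm38, the assembly also called mm10.

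The promoters of 4 of the genes are shown. Itpka and Plcb1, 2 genes called lower in HF-HI, stand beside 2 that were not called (Ryr2 and Prkca). The call of Plcb1 was lost when the GC trend described below was removed on its own. Each run holds the bases before the start of the first exon in both annotations, read 5′ to 3′ on the strand of the gene from RefSeq's GRCm38.p6. Capitals mark the GC box GGGCGG on either strand. The windows lie at chr2:119742087-119742336 on the plus strand for Itpka, chr2:134785914-134786066 on the plus strand for Plcb1, chr13:12106946-12107195 on the minus strand for Ryr2 and chr11:108343929-108344138 on the minus strand for Prkca.
Itpka: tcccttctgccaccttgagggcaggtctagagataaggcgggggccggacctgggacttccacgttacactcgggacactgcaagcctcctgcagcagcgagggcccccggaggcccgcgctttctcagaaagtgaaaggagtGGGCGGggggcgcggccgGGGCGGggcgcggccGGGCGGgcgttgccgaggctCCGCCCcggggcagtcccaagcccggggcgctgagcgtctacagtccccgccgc
Plcb1: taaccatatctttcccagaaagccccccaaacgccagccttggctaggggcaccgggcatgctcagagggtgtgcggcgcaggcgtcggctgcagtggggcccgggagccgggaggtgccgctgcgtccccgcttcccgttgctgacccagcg
Ryr2: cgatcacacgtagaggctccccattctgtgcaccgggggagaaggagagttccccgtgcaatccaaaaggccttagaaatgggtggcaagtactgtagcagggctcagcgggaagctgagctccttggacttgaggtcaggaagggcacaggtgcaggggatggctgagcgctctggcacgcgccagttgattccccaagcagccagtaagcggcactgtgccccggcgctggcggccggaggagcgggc
Prkca: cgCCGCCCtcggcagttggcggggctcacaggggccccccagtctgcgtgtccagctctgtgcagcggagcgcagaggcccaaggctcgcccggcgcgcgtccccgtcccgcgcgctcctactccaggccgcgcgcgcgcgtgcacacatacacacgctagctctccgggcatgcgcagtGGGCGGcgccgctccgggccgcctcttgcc

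The Itpka window of 250 bases held 72.8% GC, 26 CG dinucleotides and 4 GC boxes, and 32.7% of the 32851 RefSeq promoter windows of that length hold at least 1 GC box. The Prkca window of 210 bases held 76.2% GC, 30 CG dinucleotides and 2 GC boxes. No GC box was found in the 153 bases of Plcb1 (69.3% GC) or in the 250 bases of Ryr2 (63.2% GC). The cyclic AMP response motif TGACG and the E-box CACGTG were also searched on both strands, and neither occurs in these 4 windows. TGACG is held by 17.8% of all windows of 250 bases and CACGTG by 6.02%.

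Before any comparison of the groups, the levels of the 7 genes were placed in order per kilobase of exon, as the log2 value less the log2 of the exonic length in kb. In sham cortex Prkcb stood highest at 10.36 ± 0.112 (SD, n = 10), followed by Itpr1 at 10.14 ± 0.0763, Itpka at 9.70 ± 0.159, Prkce at 9.44 ± 0.0929, Plcb1 at 9.31 ± 0.0782, Ryr2 at 8.37 ± 0.0826 and Prkca at 8.20 ± 0.138 (SD, n = 10 for each). Each step of this order was larger than the SD of either neighbor, the closest being Prkce over Plcb1 by 0.12. The lengths are unions of all annotated exons, 28.8 kb for Ryr2 and 1.82 kb for Itpka, and a gene with many unused exons is placed too low by this measure. In HF-HI mice Itpka (9.40 ± 0.165, SD, n = 11) stood just below Prkce (9.48 ± 0.0927), a gap within the SD of Itpka, and the order was otherwise that of sham.

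Expression was lower in HF-HI cortex for 3 of the 7 genes and higher for 0 of them. The 3 were Plcb1, Itpr1 and Itpka, the enzyme that makes inositol trisphosphate, the receptor that binds it and the kinase that removes it. The 3 protein kinase C genes and Ryr2 did not pass the test. Groups were compared with limma's moderated test over all 5544 genes with Benjamini-Hochberg adjustment, and a gene was called at an adjusted p under 0.05. By this rule 66.3% of all genes were called, 33.6% lower and 32.6% higher, so a count of 3 lower genes among 7 is near the background of the table. Once the GC trend had been removed, 2 of the 7 were lower, Itpr1 and Itpka, where 60.2% of all genes were called, 31.0% lower and 29.2% higher. With a minimum absolute difference of 0.25 as well as the adjusted p, 1 of the 7 was lower, Itpka, where 25.8% of all genes were called and 8.04% were lower. The median log2 difference was -0.020 over the 7 genes and -0.0086 over all genes.

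**Figure D1:**
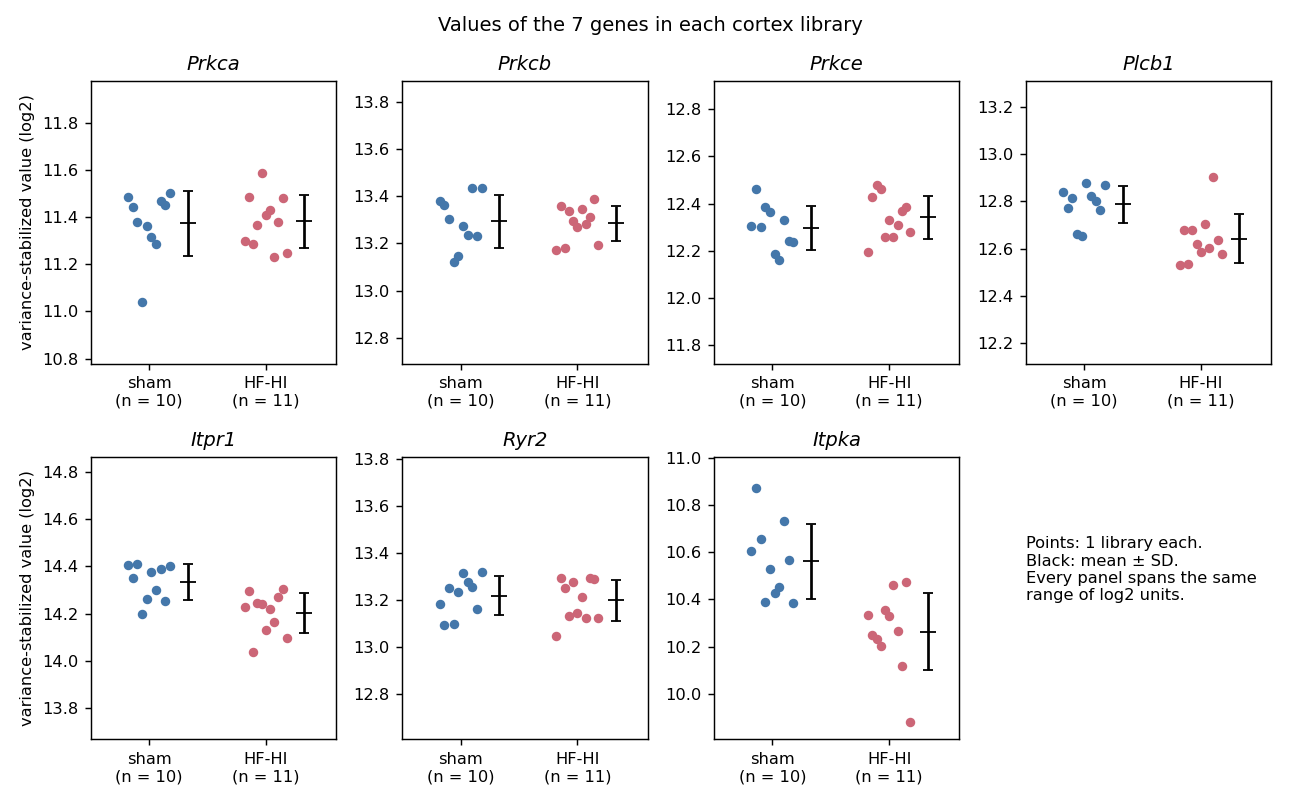
Variance-stabilized value (log2) of each of the 7 genes in each cortex library, sham (n = 10) and HF-HI (n = 11), with 1 point per library and the mean ± SD in black. All panels span the same range, and the HF-HI points sit lowest against sham for Itpka, then for Plcb1 and Itpr1, while the groups of the other 4 genes cover one another.

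The libraries differ in 2 properties that move with the groups. The median of a library ran from 9.68 to 9.72 in sham and from 9.73 to 9.76 in HF-HI, without overlap (two-sided permutation test, p = 2e-05, the lowest that 100000 resamples allow). With these medians centred the called genes were again Itpka (-0.35), Plcb1 (-0.20) and Itpr1 (-0.18). In every library the deviation of each gene from its mean over all libraries was taken, and a line was fitted to these deviations against exonic GC content. The slopes are thus relative to the mean of all libraries. Its slope per 10% GC was -0.11 ± 0.0775 for sham (SD, n = 10) and 0.096 ± 0.0602 for HF-HI (SD, n = 11) on the log2 scale (two-sided permutation test, p = 2e-05, the lowest p that 100000 resamples allow). The data were also refitted with each library's GC trend removed. Those values stand beside each of the 7 genes, and beside a called pathway gene where the refit ended its call or moved its difference by over 1.5 times. The part of the trend in the results was not tested otherwise. The read totals are unknown. The depth relative to the median library, taken from the spacing of the values, ran from 0.580 to 1.26 in sham and from 0.548 to 1.64 in HF-HI. In whole cortex, fewer cells of a type and less RNA per cell cannot be told apart.

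Itpka (ENSMUSG00000027296, chromosome 2 from 119742337 to 119751263) changed most. Its lowest, median and highest values were 10.39, 10.55 and 10.87 in sham and 9.88, 10.27 and 10.47 in HF-HI. The groups overlapped in part: 9 of the 11 HF-HI libraries lay below every sham library, and all 11 lay below the sham median. Sham replicates 4, 6, 7 and 10 (10.39, 10.43, 10.45 and 10.39) lay below the highest HF-HI value of 10.47. No overlap at all was seen for 13.5% of the genes in the table and for 0 of these 7. The sham mean was 10.56 ± 0.159 (SD, n = 10) and the HF-HI mean 10.26 ± 0.165 (SD, n = 11). The log2 difference was thus -0.30 (limma standard error 0.0664, 95% confidence interval -0.44 to -0.16, adjusted p = 4.28e-04). This places HF-HI at 81.3% of the sham level. The lowest HF-HI value belonged to replicate 11, which had the lowest relative depth of its group, 0.548. Without that library the difference was -0.26 (adjusted p = 5.16e-04). With relative depth as a covariate, a setting chosen after seeing the data, it was -0.38 (adjusted p = 5.71e-06). The part of depth in these values was not tested further.

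Few genes of like composition were lower. Among the tenth of genes with the highest exonic GC content, 56.4% and above, 7.94% were called lower, and Itpka was one of these. Over the whole table its difference ranked 225 of 5544 from the lowest. After removal of each library's GC trend it was larger, at -0.61 (95% confidence interval -0.73 to -0.50, adjusted p = 8.61e-09), which ranked 23 of 5539. Removing the trends on GC content and exonic length together gave -0.45 (adjusted p = 2.15e-07). The size of the decrease therefore depended on how the GC trend was handled, by more than 1.5 times, and its direction did not.

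**Figure D2:**
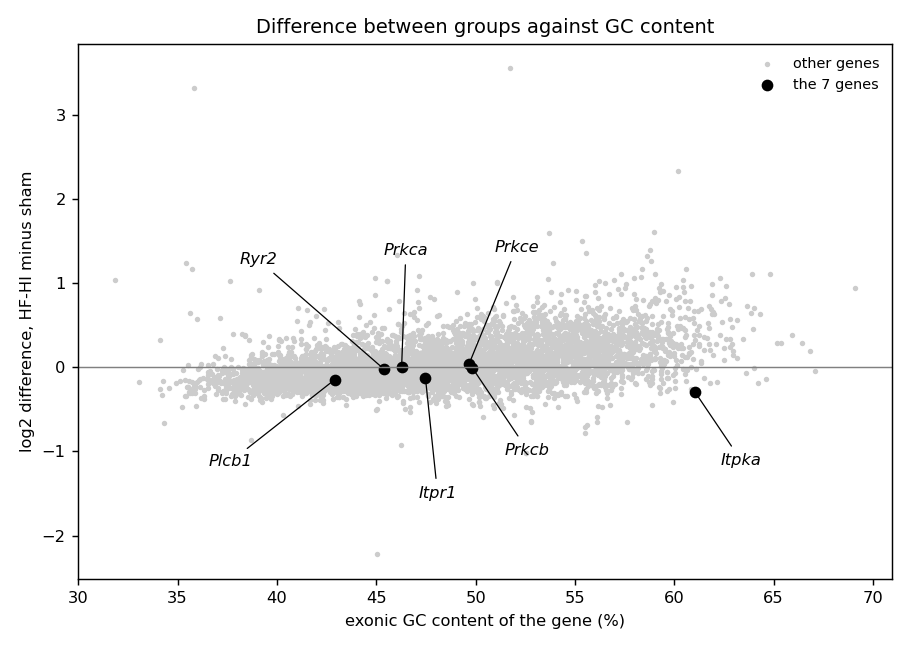
Log2 difference between HF-HI and sham (vertical axis) against the exonic GC content in percent (horizontal axis) for every gene of the table (grey) and the 7 genes (black, named). The cloud rises to the right, and Itpka, at 61.1% GC and -0.30, lies near its lower edge while the other 6 lie inside it between 42.9% and 49.8%.

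Plcb1 (ENSMUSG00000051177, chromosome 2 from 134786067 to 135475258) encodes the phospholipase C isoform that follows Gq-coupled receptors in forebrain pyramidal neurons. Its values ran from 12.65 to 12.88 in sham (median 12.81) and in HF-HI from 12.53 to 12.91 (median 12.62). Of the 11 HF-HI libraries 7 lay below every sham library, and replicate 9, at 12.91, lay above all of them. The log2 difference was -0.15 (standard error 0.0404, 95% confidence interval -0.23 to -0.063, adjusted p = 0.00299 from limma), or 90.4% of the sham level. Without replicate 9, a library of relative depth 0.572, it was -0.17 (adjusted p = 8.78e-05). Plcb1 had the lowest GC content of the 7 genes, and its call was lost when the GC trend was removed, at -0.065 (adjusted p = 0.118). With the trends on GC content and exonic length removed together it was called, at -0.12 (adjusted p = 0.0109).

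Itpr1 (ENSMUSG00000030102, chromosome 6 from 108213096 to 108551109), the main inositol trisphosphate receptor of neurons, had the highest values of the 7 genes before scaling to length. They ran from 14.20 to 14.41 in sham (median 14.36) and in HF-HI from 14.04 to 14.30 (median 14.23). The groups overlapped, 4 HF-HI libraries lay below every sham library, and all 11 lay below the sham median. The difference was small and even: -0.13 on the log2 scale (standard error 0.0360, 95% confidence interval -0.21 to -0.058, adjusted p = 0.00263 from limma), or 91.2% of the sham level. It was also -0.13 (adjusted p = 0.00248) with the GC trend removed, and -0.20 (adjusted p = 9.62e-05) with the trends on GC content and exonic length removed together.

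Ryr2 (ENSMUSG00000021313, chromosome 13 from 11553102 to 12106945), the ryanodine receptor of cardiac muscle and the main one of forebrain neurons, covered nearly the same range in both groups. It ran from 13.09 to 13.32 in sham (median 13.24) and in HF-HI from 13.05 to 13.29 (median 13.21). The log2 difference was -0.020 (95% confidence interval -0.098 to 0.058, adjusted p = 0.650 from limma). For the values as deposited, this interval leaves out a decrease as large as the -0.13 of Itpr1. The difference was 0.018 (adjusted p = 0.668) with the GC trend removed and -0.062 (adjusted p = 0.136) with the GC and length trends removed. With library medians centred it was -0.072 (adjusted p = 0.106). Within each library the value of Itpr1 exceeded that of Ryr2 by 1.02 to 1.26 in sham (median 1.10) and by 0.79 to 1.18 in HF-HI (median 1.00), and this margin was below the lowest sham margin in 8 of 11 HF-HI libraries. A margin within a library does not depend on how the library was scaled, but it still carries the GC trend of that library.

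The protein kinase C genes showed no difference that passed the test. Prkcb (ENSMUSG00000052889, chromosome 7 from 122288751 to 122634402), a conventional isoform, ran from 13.12 to 13.44 in sham (median 13.29) and in HF-HI from 13.17 to 13.39 (median 13.30). Its log2 difference was -0.0071 (95% confidence interval -0.091 to 0.077, adjusted p = 0.887 from limma). With the GC trend removed it was -0.058 (95% confidence interval -0.14 to 0.024, adjusted p = 0.207), and with the GC and length trends removed -0.088 (adjusted p = 0.0599), more than 1.5 times the first value in both cases. Prkca (ENSMUSG00000050965, chromosome 11 from 107933387 to 108343928), the other conventional isoform here, ran from 11.04 to 11.50 in sham (median 11.41) and in HF-HI from 11.23 to 11.59 (median 11.38). The lowest of these values was sham replicate 4, and the other 9 sham libraries began at 11.29. The difference of Prkca was 0.0089 (95% confidence interval -0.099 to 0.12, adjusted p = 0.890), and -0.028 (adjusted p = 0.582) without that library, and 0.033 (adjusted p = 0.601) with the GC trend removed. Prkce (ENSMUSG00000045038, chromosome 17 from 86167785 to 86657919), an isoform that needs diacylglycerol but not calcium, ran from 12.16 to 12.46 in sham (median 12.30) and in HF-HI from 12.19 to 12.48 (median 12.33). Its difference was 0.044 (95% confidence interval -0.039 to 0.13, adjusted p = 0.342), and -0.0038 (adjusted p = 0.941) with the GC trend removed. Over these 3 genes the intervals ran from -0.099 to 0.13 on the log2 scale for the values as deposited and from -0.14 to 0.14 with the GC trend removed.

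**Figure D3:**
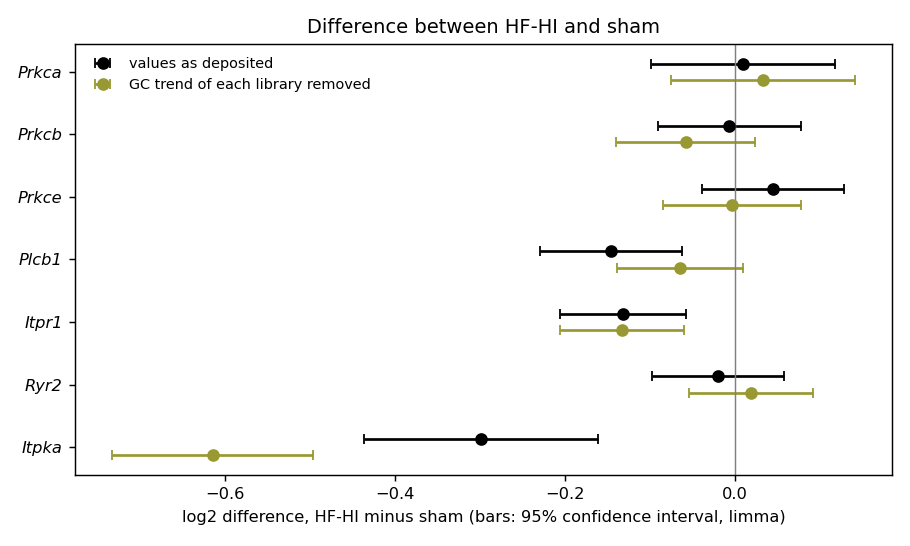
Log2 difference between HF-HI and sham for the 7 genes, with 95% confidence intervals from limma, for the values as deposited (black) and with the GC trend of each library removed (olive). Itpka and Itpr1 stay left of 0 in both, the interval of Plcb1 reaches 0 once the trend is removed, and those of the 3 protein kinase C genes and Ryr2 cross 0 in both.

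Margins between genes of the same library were also compared, and those between kinase isoforms overlapped widely. In each library Prkcb exceeded Prkca by 1.78 to 2.08 in sham (median 1.93) and by 1.71 to 2.05 in HF-HI (median 1.91). Prkce exceeded Prkca by 0.73 to 1.35 in sham (median 0.87) and by 0.67 to 1.20 in HF-HI (median 0.95). The value of Plcb1 less that of Prkcb lay between -0.64 and -0.39 in sham and between -0.75 and -0.41 in HF-HI, where 9 of 11 libraries were below the lowest sham library. The value of Itpka less that of Prkcb had a median of -2.72 in sham and -2.95 in HF-HI, where 4 libraries were below the lowest sham library. These margins were compared by their ranges, without a test, and they still carry the GC trend of each library. With that trend removed the log2 difference between groups was -0.065 for Plcb1, -0.058 for Prkcb and -0.61 for Itpka.

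The genes whose values followed each of the 7 most closely over the 21 libraries were named by the highest Pearson correlation, given as a description since all genes share the libraries and their scaling. Itpka was followed by Rundc3a (r = 0.954, and 0.913 with the group means removed) and Josd1 (0.937 and 0.884). Plcb1 was followed by Mal2 (0.912 and 0.870) and Arpp19 (0.901 and 0.828), and Itpr1 by Gabrg3 (0.875 and 0.774) and Acvr1c (0.862 and 0.752). All 6 of these genes were themselves lower in HF-HI, by -0.18 (Josd1) to -0.32 (Acvr1c) on the log2 scale, beside 33.6% of all genes. A correlation over both groups favors genes that share the group difference, so this is not a separate result. The likeness was also present within the groups, for the called genes as for those not called. Among the latter, Ryr2 was followed by Adcy2 (0.843 and 0.853) and Rasal2 (0.817 and 0.816). Prkce was followed by Tmem178b (0.792 and 0.786) and Ubqln2 (0.769 and 0.756), and Prkca by Gpd1 (0.787 and 0.789) and Golga7b (0.746 and 0.748). The gene closest to Prkcb was Prkca (0.728 and 0.731), the only such match between members, followed by Skil (0.723 and 0.790).

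The surrounding pathway was described with 10 lists ordered by role, which name 168 genes, of which 100 were in the table. Of these, 39 were higher and 25 lower, together 64 of 100, close to the 66.3% of all genes. With library medians centred the split was 33 higher and 32 lower, where 1448 of all 5544 genes were higher and 2376 lower. With quantile normalization it was 36 and 34, where 1547 of all genes were higher and 2242 lower. Lists are described by counts and medians, without a test of the list. Beside each count from the values as deposited stand the shares of all genes, 32.6% higher and 33.6% lower.

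Upstream, the receptors moved in both directions. Of 8 Gq-coupled receptor genes tested out of 18 listed, 3 were higher and 2 lower, with a median of -0.033. Chrm1, the muscarinic M1 receptor, ran from 9.11 to 9.76 in sham and from 9.87 to 10.27 in HF-HI without overlap, a log2 difference of 0.62 (adjusted p = 7.99e-07 from limma). Grm5, the main group I metabotropic glutamate receptor of cortex, lay wholly on the other side, from 12.07 to 12.30 in sham and from 11.55 to 11.99 in HF-HI. The neurotensin receptor gene Ntsr2, found mainly in astrocytes, was higher by 0.47 (adjusted p = 4.68e-09). Among Gq-class subunits and regulators of G protein signaling 4 of 6 were higher and 1 lower, beside 32.6% and 33.6% of all genes. The median of this list was 0.20. Gnaq, the alpha subunit that couples these receptors to phospholipase C, was not called at -0.027 (adjusted p = 0.566), whereas Gna11 was higher by 0.26 (adjusted p = 0.00720), a call that was lost at 0.052 with the GC trend removed. The regulator genes Rgs7 and Rgs8 were higher by 0.55 (adjusted p = 1.77e-05) and 0.37 (adjusted p = 1.10e-06).

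Genes that supply the lipid cut by phospholipase C were mostly higher. Of 16 genes tested out of 19 listed, 14 were higher and 0 lower, where 32.6% of all genes were higher and 33.6% lower. The median log2 difference was 0.28 against -0.0086 over all genes. The summed level of the 16 genes ran from 14.82 to 14.98 in sham and from 15.04 to 15.20 in HF-HI, without overlap. Pip5k1c, the main synaptic kinase that makes the substrate of phospholipase C, was higher by 0.62 (adjusted p = 1.93e-07 from limma), the lipid transfer gene Pitpnm2 by 0.46 (adjusted p = 9.85e-06) and the kinase gene Pip4k2c by 0.40 (adjusted p = 9.07e-07). With the GC trend removed 12 were higher and 1 lower, with a median of 0.20, and these 3 genes were higher by 0.33, 0.24 and 0.31. Over all genes 29.2% were higher and 31.0% lower in that refit. Centring the library medians gave 13 higher and 1 lower, where 1448 of all 5544 genes were higher and 2376 lower.

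Of the other phospholipase C genes 6 were tested out of 15, and 2 were lower and 1 higher, where 33.6% of all genes were lower and 32.6% higher: Plcb4 by -0.27 (adjusted p = 0.00382 from limma), the phospholipase C-like gene Plcl2 by -0.23 (adjusted p = 1.91e-04) and Plch2 by 0.25 (adjusted p = 1.91e-04). The last of these was at -0.025 and no longer called with the GC trend removed. Among other kinases of the protein kinase C, D and N families 5 of 12 were tested, with 1 higher and 2 lower. With library medians centred 0 genes of this list were higher, beside 1448 of all 5544 genes. The atypical isoform gene Prkcz was lower, at -0.14 (adjusted p = 0.00319), and by -0.29 with the GC trend removed, and Pkn2 was lower, at -0.23 (adjusted p = 8.41e-05), or -0.076 (adjusted p = 0.0525) without the trend. Prkcd, Itpr2 and Itpkb were not analysed here, as they were not among the genes of the table.

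Genes for protein kinase C substrates and anchors included the largest difference of the pathway. Nrgn, which encodes neurogranin, a postsynaptic substrate of protein kinase C that binds calmodulin, ran from 10.23 to 10.99 in sham and from 11.66 to 12.42 in HF-HI, 1.32 higher on the log2 scale (limma standard error 0.0985, adjusted p = 3.07e-10). Add1, which encodes the cytoskeletal protein adducin 1, was higher by 0.45 (adjusted p = 9.32e-07). Of the 10 tested genes of this list, out of 13, 5 were higher and 3 lower. Diacylglycerol kinases and diacylglycerol-binding proteins had 6 lower and 3 higher of 16 tested, beside the same 33.6% and 32.6% of all genes. Dgkg, a kinase that removes diacylglycerol, was lower, at -0.29 (adjusted p = 0.00427), while Dagla, the lipase that turns diacylglycerol into the endocannabinoid 2-AG, was higher by 0.75 (adjusted p = 5.55e-09, and 0.50 with the GC trend removed) and Rasgrp2 by 0.24 (adjusted p = 0.0227). The call of Rasgrp2 was lost with the GC trend removed (0.14, adjusted p = 0.205).

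Downstream of inositol trisphosphate, 9 of 18 listed kinases and phosphatases were tested, 3 of them lower and 1 higher. Over all genes 33.6% were lower and 32.6% higher. Ppip5k2 and Impa1 were lower, at -0.21 (adjusted p = 2.83e-05 from limma) and -0.15 (adjusted p = 0.00196), or -0.088 and -0.095 with the GC trend removed, where both were still called. Inpp4a was higher by 0.15 (adjusted p = 0.0210), a call that the GC trend removal ended (adjusted p = 0.0980). None of these reached the -0.30 of Itpka. Among other store channels and their partners 5 were higher and 1 lower of 15 tested out of 23, so the higher genes were near the 32.6% of all genes. Ahcyl1, which encodes IRBIT, a protein that competes with inositol trisphosphate for its receptor, was higher by 0.62 (adjusted p = 1.35e-08), and Jph3 and Jph4, the neuronal junctophilins that hold the store near the plasma membrane, by 0.55 (adjusted p = 5.01e-07) and 0.38 (adjusted p = 6.01e-04), or by 0.31 and 0.21 with the GC trend removed. Ryr3 (-0.078, adjusted p = 0.389) and Homer1 (-0.14, adjusted p = 0.135), the scaffold that links metabotropic receptors to the store receptor, were not called. Of the 9 tested genes for store refilling and store calcium buffers, out of 22, 5 were lower and 2 higher. Trpc1, a channel subunit of the plasma membrane, was lower, at -0.38 (adjusted p = 3.51e-09) and Saraf, a regulator of store-operated entry, by -0.22 (adjusted p = 3.51e-04). Atp2a2, the SERCA2 pump that fills the store, was higher by 0.23 (adjusted p = 3.78e-06), and its groups did not overlap.

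**Figure D4:**
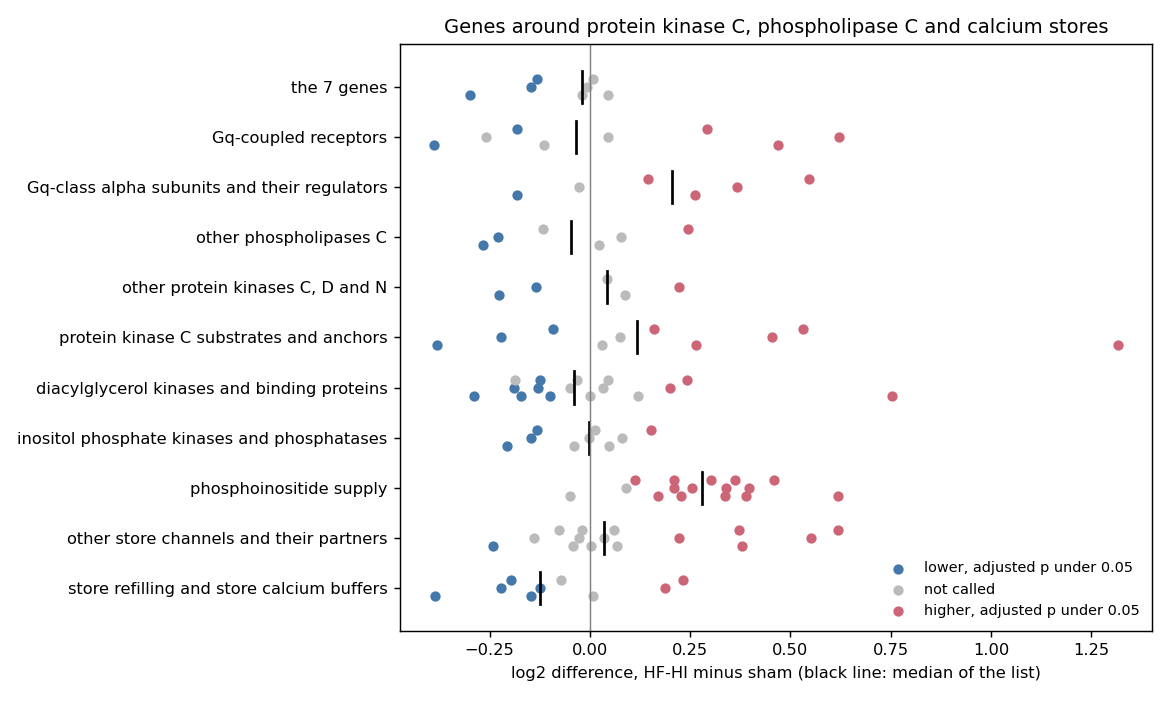
Log2 difference between HF-HI and sham for the 7 genes and for each tested gene of the 10 pathway lists, with 1 point per gene (blue lower, red higher, grey not called at an adjusted p of 0.05 from limma) and the median of each list in black. The phosphoinositide supply genes lie almost wholly to the right of 0, with 14 of 16 higher, and Nrgn stands alone at 1.32.

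Cortical tissue was checked with marker lists. Over all genes of the table, 32.6% were called higher and 33.6% lower. All 10 neuron markers were in the table, with 7 higher and 1 lower and a summed level of 16.58 to 16.70 in sham and 16.64 to 16.80 in HF-HI. The 7 tested markers of excitatory cortical neurons, the cells in which Plcb1, Itpka and Prkcb are best known, were summed at 13.19 to 13.52 in sham and 13.88 to 14.15 in HF-HI, with 5 higher and 0 lower. The median difference of these markers was 0.54, and 0.39 with the GC trend removed. Itpka, Plcb1 and Itpr1 were opposite in sign in both, though Plcb1 was not called with the trend removed. Of the 7 listed striatal markers, 6 were tested, 1 was lower and 0 higher, and their summed level ran from 12.75 to 13.15 in sham and from 12.10 to 13.38 in HF-HI. Astrocyte markers (8 of 9 tested, 3 higher and 2 lower) were summed at 16.03 to 16.15 in sham and 16.07 to 16.21 in HF-HI. Oligodendrocyte markers (9 of 10, 3 higher and 0 lower) were summed at 15.36 to 16.07 and 15.39 to 16.06. Of 7 inhibitory neuron markers 6 were tested, with 3 higher and 0 lower. Few markers of the remaining lists were in the table, with 2 of 10 for microglia (1 higher and 1 lower), 2 of 6 for endothelial cells (1 higher and 1 lower), 1 of 4 for choroid plexus, 1 of 5 for hippocampus, 1 of 4 for cerebellum and 1 of 2 for oligodendrocyte precursors. The hippocampal marker, Wfs1, was higher by 0.46 and was not called with the GC trend removed (0.23). The other 3 single markers were not called in the values as deposited. With the GC trend removed the precursor marker was lower, at -0.11, and with library medians centred it and the cerebellar marker were lower. Removal of the GC trend left 2 astrocyte markers higher and 3 lower, and 2 oligodendrocyte markers higher and 2 lower. In that refit 29.2% of all genes were higher and 31.0% lower. The choroid plexus marker, Ttr, ran from 6.16 to 11.51 in sham and from 6.86 to 13.35 in HF-HI, so single libraries stood far apart in it. Itpka, Plcb1 and Itpr1 were called with each library left out in turn. The part of cell composition in the 3 decreases was not tested.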

How the data were processed

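RNA from mouse cortex (10 sham and 11 HF-HI libraries, grouped and numbered by their labels) had been made by the authors into stranded total RNA libraries after ribosomal RNA removal, aligned to mm10 with STAR, counted per transcript with eXpress and normalized with DESeq2. What the authors deposited is 1 variance-stabilized log2 value per Ensembl gene and library. The annotation and the versions of STAR and eXpress are not given in the sources used here. The table holds 5544 genes, from 4.59 to 17.7 (5541 have a symbol in GENCODE M21 and 5539 an exonic GC content, over the union of exons). No counts were used, and therefore no count test.

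The HF-HI and sham libraries were compared by limma 3.58.1 (R 4.3.3; two-sided lmFit and eBayes tests, trend allowed in the variance) with Benjamini-Hochberg adjustment over all genes. Tables and plots were made with pandas 2.3.3, numpy 2.4.6, matplotlib 3.10.9 and scipy 1.17.1 under Python 3.11.15. Permutation tests drew 100000 resamples. GC trends were removed with lowess (span 0.3) on deviations from the mean of all libraries, which also removes any biology that follows GC content. The scripts were tested on simulated data first. The median gene had an SD of 0.104 within groups, and this spread among mice limits the precision.

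The genes and lists were chosen with earlier results of these data known. Named pathway genes are up to 3 called genes per list with the largest absolute difference, and 11 fixed ones, of which some are not reported here. The libraries are 1 per mouse, and 4 of the 10 pairs of equal replicate number correlated over 0.1 (range -0.31 to 0.36), so the numbers were not treated as pairs. Alternatives were an adjusted p of 0.1, a minimum difference of 0.25, no variance trend, the Wilcoxon rank-sum test, centred medians, quantile normalization, the lowest quartile of genes left out, GC and length trends removed, a replicate block and each library left out. Relative depth as a covariate was chosen after seeing the data.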

Additional observations from a re-analysis of the deposited data

Results flagged for a closer look

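Prkca in sham replicate 4, at 11.04, stood apart from the other sham libraries, which ran from 11.29 to 11.50, and its gap to the next library took up 53.4% of the range of the group. It was the single library so marked among 43 quantities examined in the sham group by Dixon's 95% criterion, by which chance marks about 1 in 20. Groups of over 10 libraries were not examined, and the HF-HI group holds 11. The same library also held the lowest sham value of Prkcb (13.12) and of Itpr1 (14.20), and its relative depth of 0.580 was the lowest of the sham group. The part of depth in these values was not tested.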

How the results depend on the processing

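The decreases of Itpka and Itpr1 passed under each of 11 settings, a number that leaves out the minimum difference and the left-out libraries, from -0.61 to -0.26 and from -0.20 to -0.12. The 11 include the looser adjusted p of 0.1, which a called gene cannot fail. Plcb1 passed in 9 of the 11 and was -0.065 with the GC trend removed and -0.055 with the replicate block as well (adjusted p = 0.118 and 0.252 from limma). A minimum absolute difference of 0.25 left 1 of the 7 genes, Itpka, and ended the calls of Plcb1 and Itpr1. It left 29 of the pathway genes in place of 64, and 1433 of all genes in place of 3674. Genes that were not called changed sign without passing. Prkca was -0.015 by the Wilcoxon test, -0.043 with library medians centred, -0.018 with quantile normalization, -0.0055 with the GC and length trends removed and -0.039 with depth as a covariate. Prkcb was 0.0021 with the replicate block. Prkce was -0.0076 with medians centred, -0.0038 with the GC trend removed, -2.41e-04 with the block as well and -0.032 with GC and length trends removed. Ryr2 was 0.018 with the GC trend removed and 0.027 with the block as well. The causes were not tested. The replicate block left 3 of the 7 genes called (Itpka at -0.26, Plcb1 at -0.14, Itpr1 at -0.12), and the numbers did not pair the samples: 0 of 10 sham libraries were closest to their own number. With each library left out, the range was -0.32 to -0.26 for Itpka, -0.17 to -0.14 for Plcb1, -0.15 to -0.12 for Itpr1, -0.028 to 0.024 for Prkca, -0.026 to 0.0089 for Prkcb, 0.029 to 0.062 for Prkce and -0.034 to -0.0050 for Ryr2, with 3 of the 7 genes called each time. Centring medians turned the 1810 higher and 1864 lower genes into 1448 and 2376, and quantile normalization into 1547 and 2242. Read totals are unknown, so no limit from counting error can be given.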
